A study of Mus musculus with 6 samples.

Results

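The 10 genes described here encode the pyruvate dehydrogenase complex and the proteins that switch it or supply it: Pdha1, Pdhb, Dlat, Dld and Pdhx of the complex, the kinases Pdk1, Pdk2 and Pdk4, the phosphatase Pdp1 and the carrier subunit Mpc2. They were chosen by gene symbol, and all 10 were found among the 16759 genes of the table and passed the filter on low values. RNA was sequenced from hind leg muscles of 3 control (Con) and 3 exercise (EX) mice, with 1 library per mouse. All were male C57BL/6J mice aged 8 weeks at the start. Treadmill sessions of 60 min, 5 per week over 6 weeks, took each EX mouse 22 km, and its muscle was collected 24 h after the final session, while the Con mice were kept without treadmill training. The sources do not state which of the hind leg muscles went into a library or when the Con mice were killed, and a library was made from a piece the size of a soybean.

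Pyruvate dehydrogenase converts pyruvate, the end product of glycolysis, to acetyl-CoA inside the mitochondrion and so controls the entry of carbohydrate carbon into the tricarboxylic acid cycle. The E1 component (Pdha1 and Pdhb) removes carbon dioxide from pyruvate with thiamine pyrophosphate, the E2 component (Dlat) passes the acetyl group to coenzyme A on lipoyl arms, and the E3 component (Dld), which is tethered by Pdhx, reoxidizes those arms. The kinases phosphorylate the E1 alpha subunit and switch the complex off, and the phosphatases switch it on again. In skeletal muscle, Pdk4 is known as the kinase that rises with fasting and fat use, and Pdk2 as a kinase present in most tissues.

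Total counts ranged from 13845362 to 16240431 per library, and the counts of single members ranged from 865 to 12785. Levels are given as CPM, counts scaled by TMM normalization to a common library size, where genes are followed across libraries, and as FPKM, which is per length, where genes are compared with each other. Of the 10883 genes tested (mean level 1 FPKM or more), 17.9% differed between EX and Con at an adjusted p-value under 0.05 (edgeR's quasi-likelihood test, Benjamini-Hochberg adjustment over all genes tested), with 9.11% higher and 8.80% lower in EX. Of these calls 50.8% were higher in EX, against 37.7% when the 20 most abundant genes were left out of the library totals, 28.4% with limma on log2(FPKM + 0.1) and 16.8% with limma on log2(TPM + 0.1). The markers of other tissues and fibre types also moved. The summed level of 8 slow fibre markers was 141.7 to 148.8 CPM in Con and 413.7 to 443.7 in EX, and all 8 were called higher. For 7 fibroblast and tendon markers these ranges were 876.6 to 912.5 and 1233 to 1255, with 5 called higher. They were 34.0 to 38.0 and 60.8 to 65.7 for 6 macrophage markers (4 of 5 tested called higher), 14.1 to 15.3 and 34.8 to 39.3 for 6 adipocyte markers (4 of 4 tested called higher, with Lep at 0 counts in Con replicate 3), 595.6 to 615.4 and 516.5 to 539.0 for 6 endothelial markers (4 called lower), 80.6 to 86.8 and 48.7 to 52.9 for 4 liver markers (3 called lower) and 182.1 to 197.2 and 200.0 to 216.7 for 3 blood markers (1 called higher). The 9 fibre markers that check the tissue label summed to 159600 to 167300 CPM in Con and 172500 to 180600 in EX, with 3 called higher and 2 lower. Among these, Myh2, the myosin of fast oxidative fibres, fell from 754.9 ± 11.9 (SD, n = 3) to 450.0 ± 8.69 CPM (log2 fold change -0.75, edgeR adjusted p = 1.4e-15), while the slow myosin Myh7 rose from 1.01 ± 0.163 to 102.2 ± 7.38 CPM. The part of these markers in the results on the members was not tested. In whole muscle, fewer cells of a type and less RNA per cell cannot be told apart. Nor can either be told apart from another muscle, or another part of it, being taken for a library.

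In EX muscle the kinase Pdk4 was lower, and Pdhb, Pdhx, Dld and Mpc2 were higher, than in Con. These 5 members, 50.0% of the 10, were past the threshold, 4 higher and 1 lower, beside the 17.9% of all genes tested. The changes were small, between a fall of 12.1% and a rise of 14.2%. The shares were not compared by a test, and they come from genes of unlike level. By mean FPKM the members ranked from 185th to 4215th of all genes tested. The members were also chosen with earlier results of these data known. The EX and Con values of 6 members did not overlap, where 33.7% of all genes tested did not. The median log2 fold change of the members was 0.06, against -0.00 for all genes tested. The split between higher and lower members was not the same under other settings, of which those with limma changed the scaling and the test together. With limma on log2(FPKM + 0.1), Pdk4 alone was called and was lower, and with limma on log2(TPM + 0.1), Pdk4 and Pdk1 were called and were lower. When the 20 most abundant genes were left out of the totals, Pdhb and Pdhx were called higher, and Pdk4 and Pdk1 lower.

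**Figure D1:**
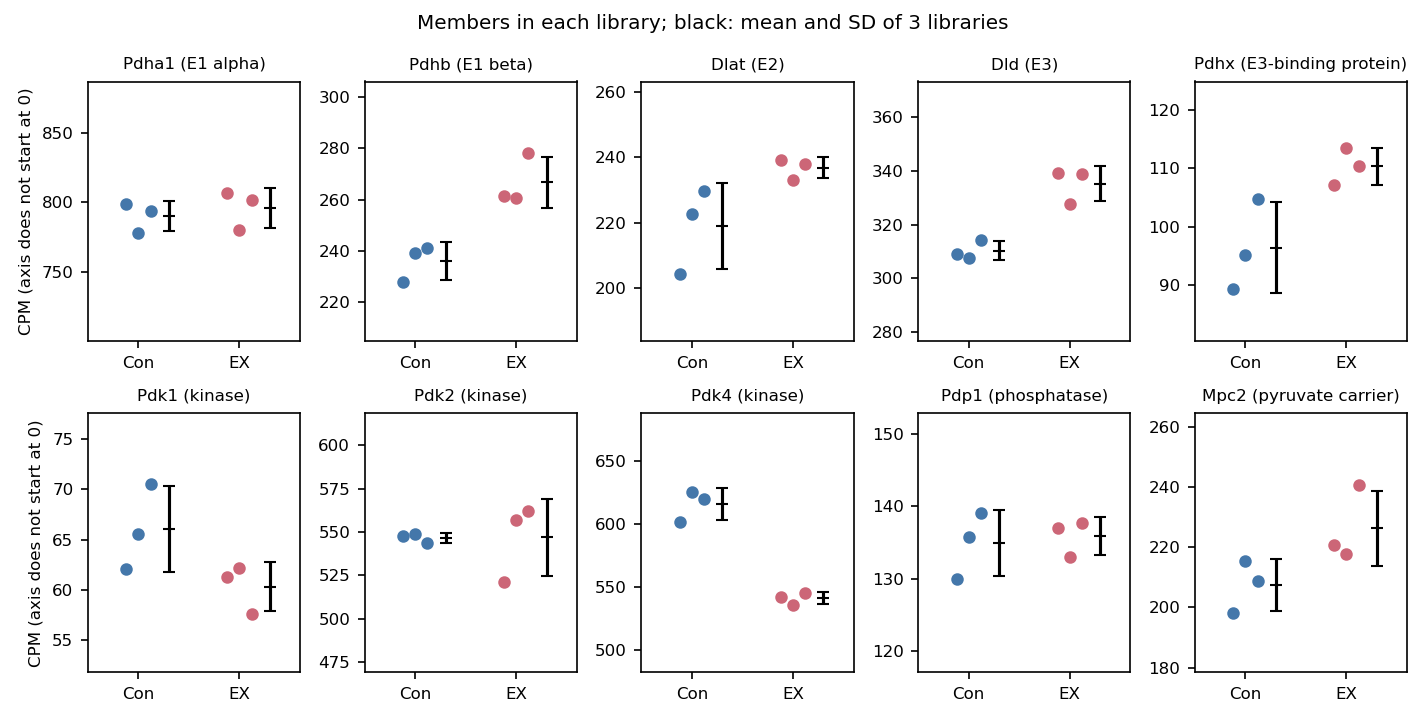
CPM of each member in the 3 Con and 3 EX libraries (points), with the mean and SD of each group in black. Each panel has its own vertical axis in CPM, which does not start at 0. All EX points of Pdk4 lie below its Con points, and all EX points of Pdhb, Pdhx, Dlat, Dld and Mpc2 lie above theirs.

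**Figure D2:**
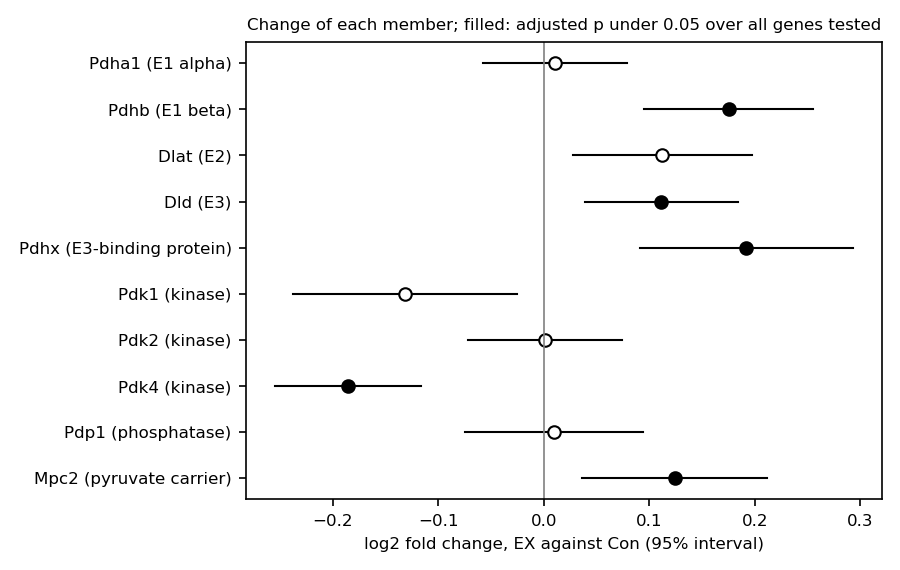
Log2 fold change of each member in EX against Con (points) with its 95% interval (lines) from edgeR. Filled points mark the 5 members with an adjusted p-value under 0.05, of which Pdk4 lies at -0.19 and Pdhx at 0.19.

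Of the 3 member kinases, Pdk4 changed, and Pdk2 and Pdk1 did not pass the test. Pdk4 (gene 27273) stood at 601.4, 625.1 and 619.9 CPM in Con and at 542.3, 536.0 and 545.6 CPM in EX. Every EX library lay below every Con library, and the highest EX value was lower than the lowest Con value by more than the range of either group. The fall was 12.1% (log2 fold change -0.19, 95% interval -0.25 to -0.12, edgeR adjusted p = 2.1e-04). This call was kept under all 15 alternatives, with log2 fold changes from -0.28 to -0.18 and adjusted p-values from 2.1e-06 to 3.4e-03. Pdk2 (gene 18604) stood at 547.5, 548.6 and 543.4 CPM in Con and at 521.3, 557.1 and 562.3 in EX. Its Con values fell inside the range of its EX values, and the 95% interval of its log2 fold change ran from -0.07 to 0.07, or from -4.89% to 5.29% (edgeR adjusted p = 0.99). Its sign changed between the alternatives, of which none called it.

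Pdk1 (gene 228026), a kinase that is known to be induced in hypoxia, was the least abundant member. It stood at 62.1, 65.5 and 70.5 CPM in Con and at 61.2, 62.1 and 57.6 CPM in EX. EX replicates 1 and 3 lay below all Con values, and EX replicate 2 lay just above Con replicate 1. The log2 fold change of -0.13 missed the threshold (95% interval -0.24 to -0.03, edgeR adjusted p = 0.079). It was past the threshold under 4 of 15 alternatives, among them the fit without Con replicate 1 (-0.18, edgeR adjusted p = 0.012), and it was -0.08 without Con replicate 3 (edgeR adjusted p = 0.34).

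Pdp1 (gene 381511), the catalytic subunit of the phosphatase that is stimulated by calcium in contracting muscle, stood at 130.0, 135.8 and 139.0 CPM in Con and at 137.1, 133.0 and 137.7 CPM in EX. The groups overlapped throughout, and the 95% interval of the log2 fold change ran from -0.08 to 0.09 (edgeR adjusted p = 0.91). None of the 15 alternatives called it, and its sign was not the same in all of them.

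For the members with the most negative and most positive log2 fold changes, Pdk4 and Pdk1 (the latter not called) and Pdhb and Pdhx, the promoters are shown so that their letters can be compared, as the 250 bases before the RefSeq start, 5′ to 3′ on the strand of the gene, from a table of the GRCm38.p6 assembly. The table matched 9 of the 10 members by gene number, all but Pdp1. Capitals mark matches, on either strand, to the motifs named below. Pdk4 lies at chr6:5496279-5496528 on the minus strand, Pdk1 (the first of its 2 starts) at chr2:71872974-71873223 on the plus strand, Pdhb at chr14:8172993-8173242 on the minus strand and Pdhx at chr2:103073514-103073763 on the minus strand.
Pdk4: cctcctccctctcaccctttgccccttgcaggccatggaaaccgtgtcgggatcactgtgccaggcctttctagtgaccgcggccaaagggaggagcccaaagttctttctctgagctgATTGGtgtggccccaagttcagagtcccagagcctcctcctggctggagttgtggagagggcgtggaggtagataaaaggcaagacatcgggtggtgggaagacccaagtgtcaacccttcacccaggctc
Pdk1: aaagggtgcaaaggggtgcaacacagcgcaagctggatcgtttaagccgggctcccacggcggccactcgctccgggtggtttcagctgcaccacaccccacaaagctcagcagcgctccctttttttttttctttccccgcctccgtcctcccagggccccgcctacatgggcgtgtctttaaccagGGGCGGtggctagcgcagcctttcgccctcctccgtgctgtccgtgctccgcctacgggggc
Pdhb: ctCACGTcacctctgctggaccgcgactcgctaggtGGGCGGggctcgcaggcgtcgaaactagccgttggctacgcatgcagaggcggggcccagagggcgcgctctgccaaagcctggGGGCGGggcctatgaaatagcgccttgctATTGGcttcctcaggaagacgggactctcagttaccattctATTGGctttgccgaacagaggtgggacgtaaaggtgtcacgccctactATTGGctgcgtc
Pdhx: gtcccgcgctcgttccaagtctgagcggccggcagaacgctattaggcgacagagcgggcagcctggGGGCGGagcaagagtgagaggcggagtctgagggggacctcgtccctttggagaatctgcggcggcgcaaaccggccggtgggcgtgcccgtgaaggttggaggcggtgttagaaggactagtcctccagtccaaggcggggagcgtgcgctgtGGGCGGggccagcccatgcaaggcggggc

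Both strands of the 11 member windows were searched for 6 motifs. The nuclear receptor half-site AGGTCA, the longer AAGGTCA that contains it and the FoxO motif GTAAACA were in none of them, and they were in 14%, 4.08% and 3.17% of the 32851 windows of the same length in the table. The core of the hypoxia response element, ACGTG, was found in 2 of the 11 member windows, of Pdhb and Pdk2, and in 16.6% of all windows. The GC box GGGCGG was found in 5 of the 11 and in 32.7% of all windows, and CCAAT in 5 of the 11 and in 33.8%. The median share of G and C was 52.4% over all windows. Member windows were above it, up to 68.4% for Pdhx, except that of Dld (43.6%) and the second of Pdk1 (38.4%). Pdk4 and Pdhb held CCAAT on the opposite strand, 1 and 3 times. A match describes these letters only, and elements outside the 250 bases were not searched.

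Within the complex, the E1 beta subunit, the E3-binding protein and E3 were higher in EX, and the E1 alpha subunit was not called. Pdhb (gene 68263) stood at 227.8, 239.4 and 241.3 CPM in Con and at 261.5, 260.6 and 278.2 CPM in EX. All EX libraries lay above all Con libraries, and the rise was 12.9% (log2 fold change 0.18, 95% interval 0.10 to 0.26, edgeR adjusted p = 1.8e-03). Pdhx (gene 27402) stood at 89.4, 95.2 and 104.7 CPM in Con and at 107.1, 113.5 and 110.3 CPM in EX. Its Con values were spread more widely than those of any other member, with a coefficient of variation of 8.01%, and Con replicate 3 came close to EX replicate 1. The rise was 14.2% (log2 fold change 0.19, 95% interval 0.09 to 0.29, edgeR adjusted p = 6.3e-03). The calls of both genes were kept without any 1 library, with log2 fold changes of 0.14 to 0.19 for Pdhb and 0.14 to 0.25 for Pdhx, but they were lost with limma on log2(FPKM + 0.1), where the changes were 0.12 (limma adjusted p = 0.11) and 0.14 (limma adjusted p = 0.17).

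Dld (gene 13382), which also serves the 2-oxoglutarate and branched-chain dehydrogenases, stood at 308.9, 307.5 and 314.3 CPM in Con and at 339.2, 327.6 and 338.7 CPM in EX. The groups were apart and each was tight, and the rise was 8.04% (log2 fold change 0.11, 95% interval 0.04 to 0.18, edgeR adjusted p = 0.028). The call was lost without Con replicate 2 (0.10, edgeR adjusted p = 0.12), without EX replicate 1 (0.10, edgeR adjusted p = 0.090) and without EX replicate 3 (0.10, edgeR adjusted p = 0.13). It was also lost with limma on log2(TPM + 0.1), where the change was 0.02 (limma adjusted p = 0.76). Dlat (gene 235339), the E2 core of the complex, stood at 204.2, 222.8 and 229.8 CPM in Con and at 239.3, 233.1 and 237.9 CPM in EX. Its EX values also lay above all Con values, but the log2 fold change of 0.11 missed the threshold (95% interval 0.03 to 0.20, edgeR adjusted p = 0.060). Con replicate 1 was the lowest of its values, and without that library the change was 0.06 (edgeR adjusted p = 0.29), while without Con replicate 3 it was 0.15 (edgeR adjusted p = 0.019).

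Pdha1 (gene 18597), the subunit that carries the sites of phosphorylation, was the most abundant member by CPM. It stood at 798.8, 778.1 and 793.8 CPM in Con and at 806.4, 779.9 and 802.0 CPM in EX. The groups overlapped almost fully, and the 95% interval of its log2 fold change ran from -0.06 to 0.08 (edgeR adjusted p = 0.87). No alternative called it, and the sign differed between them. The FPKM of Pdha1 was 1.611, 1.492 and 1.503 times that of Pdhb in Con and 1.414, 1.372 and 1.326 times in EX, and these ratios, which do not depend on library scaling, did not overlap between the groups. The ratio of Pdhx to Dlat did overlap, at 0.737, 0.720 and 0.769 in Con and 0.755, 0.820 and 0.780 in EX. No test was made on these ratios.

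Mpc2 (gene 70456), a subunit of the carrier that brings pyruvate through the inner mitochondrial membrane, stood at 198.3, 215.5 and 208.7 CPM in Con and at 220.6, 217.6 and 240.5 CPM in EX. The EX values lay above the Con values, but EX replicate 2 was only just above Con replicate 2. The rise was 9.0% (log2 fold change 0.12, 95% interval 0.04 to 0.21, edgeR adjusted p = 0.043). The call was the least firm of the 5, since it was kept under 5 of 15 alternatives and was lost without Con replicate 1 (0.09, edgeR adjusted p = 0.13), Con replicate 3 (edgeR adjusted p = 0.066), EX replicate 1 (edgeR adjusted p = 0.053) or EX replicate 3 (0.08, edgeR adjusted p = 0.32) and with DESeq2 (adjusted p = 0.087). The other subunit of the carrier, Mpc1, stood at 301.9, 314.4 and 329.9 CPM in Con and at 352.0, 329.4 and 327.4 CPM in EX, with a log2 fold change of 0.09 (edgeR adjusted p = 0.11).

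Compared per length, the members had the same order of mean levels in both groups. In FPKM the means in Con were 438.2 ± 23.3 (SD, n = 3) for Mpc2, 317.2 ± 4.79 for Pdha1, 286.3 ± 2.21 for Pdk2, 206.8 ± 8.80 for Pdhb, 199.8 ± 5.63 for Pdk4 and 161.4 ± 3.40 for Dld. Dlat, Pdhx, Pdp1 and Pdk1 followed at 59.9 ± 4.17, 44.5 ± 4.03, 35.4 ± 1.54 and 13.9 ± 0.914 FPKM. In EX the means were 457.5 ± 23.4 for Mpc2, 307.2 ± 8.17 for Pdha1, 275.3 ± 9.42 for Pdk2, 224.3 ± 8.42 for Pdhb, 168.9 ± 2.82 for Pdk4, 167.6 ± 4.70 for Dld, 62.3 ± 1.41 for Dlat, 48.9 ± 0.960 for Pdhx, 34.3 ± 0.931 for Pdp1 and 12.1 ± 0.457 for Pdk1. In Con, the FPKM range of Pdk4 (193.3 to 203.2) overlapped that of Pdhb (197.0 to 214.1), although Pdk4 was below Pdhb within each of the 3 libraries. In EX its range (165.7 to 170.7) overlapped that of Dld (162.3 to 171.1), and there the order was mixed, with Pdk4 below Dld in EX replicate 1 and above it in EX replicates 2 and 3. Mpc2 ranked 185th of the 10883 genes tested by mean FPKM and Pdk1 ranked 4215th, and Pdk2 and Pdk4 ranked 295th and 438th. The transcript length that links counts and FPKM differed between the groups by at most 0.829%, for Pdk1.

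**Figure D3:**
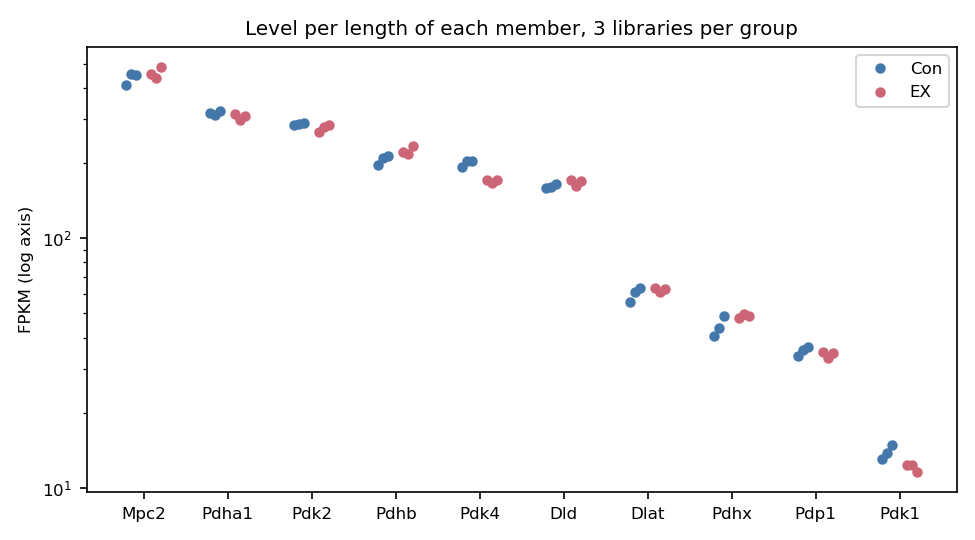
FPKM of each member in the 3 Con and 3 EX libraries on a log axis, in the order of the Con means. The range of Pdk4 overlaps that of Pdhb in Con (193.3 to 203.2 against 197.0 to 214.1 FPKM), with Pdk4 lower in each library, and overlaps that of Dld in EX.

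Pdk2 and Pdk4 made up nearly all of the kinase mRNA. With Pdk3 included, which is not a member and had 10 to 17 counts per library, Pdk4 accounted for 39.4%, 40.2% and 40.1% of the summed FPKM of the 4 kinases in Con and for 38.1%, 36.3% and 36.6% in EX. Pdk2 accounted for 57.9%, 56.9% and 56.8% in Con and 59.1%, 60.9% and 60.8% in EX, and Pdk1 for 2.49% to 2.93% over the 6 libraries. The shares of Pdk2 and Pdk4 did not overlap between the groups. The ratio of Pdk4 to Pdk2 was 0.681, 0.706 and 0.706 in Con and 0.644, 0.596 and 0.602 in EX. The summed FPKM of the kinases was 490.6, 504.7 and 506.4 in Con and 448.5, 456.4 and 465.8 in EX. The ratio of this sum to the summed FPKM of the phosphatases Pdp1 and Pdp2 overlapped between the groups. It was 13.61, 13.32 and 13.01 in Con and 12.14, 13.14 and 12.7 in EX. On the FPKM scale the median log2 fold change of all genes tested was -0.06, and the values are given as a description with no test.

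The members differed little from mouse to mouse. The median coefficient of variation of their CPM was 3.24% in Con and 2.42% in EX, and among the 4215 genes tested with at least the mean FPKM of Pdk1 it was 4.03% and 3.39%. All members but Pdk1 ranked 1912th or better by mean FPKM, so they were more abundant than most of those genes. Con replicate 1, the library with the fewest counts, was the lowest Con library for 7 of the 10 members, and EX replicate 2 was the lowest EX library for 7.

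A wider set of 83 genes around the complex was followed in 8 lists, of which 76 genes were tested. Of these, 8 were higher and 14 lower in EX, or 28.9% called, beside 17.9% of all genes tested. Under other settings this split was 8 higher and 19 lower when the 20 most abundant genes were left out of the totals, 3 and 16 with limma on log2(FPKM + 0.1) and 2 and 30 with limma on log2(TPM + 0.1). The lists were not tested as sets, and their medians are given beside the median of all genes tested, -0.00. Of the remaining regulators, Pdpr, the regulatory subunit of the phosphatase, fell from 229.2 ± 5.49 (SD, n = 3) to 206.1 ± 7.56 CPM (log2 fold change -0.15, edgeR adjusted p = 6.1e-03), and the call was lost without EX replicate 3 (-0.13, edgeR adjusted p = 0.073). Pdp2, the other catalytic subunit, and Mpc1 were not called (median of the 3 genes tested -0.15). None of 6 genes tested for the supply of lipoate and thiamine, the cofactors of the complex, was called (median 0.02).

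Of 8 genes tested of the sister dehydrogenases, which act on other 2-oxoacids with the same design, Dlst rose and Dhtkd1 fell (median -0.07). With limma on log2(TPM + 0.1), neither was called and 4 others of the list were called lower. Dlst, the E2 of the 2-oxoglutarate dehydrogenase, stood at 314.4 ± 8.34 CPM in Con and 351.0 ± 8.92 in EX (log2 fold change 0.16, edgeR adjusted p = 2.5e-03), and its call was lost in the 3 fits with limma, as those of Pdhb and Pdhx were. Dhtkd1, the E1 of the 2-oxoadipate dehydrogenase, stood at 10.5 ± 1.13 CPM in Con and 8.24 ± 0.768 in EX (log2 fold change -0.36, edgeR adjusted p = 0.023), and it was called in 6 of 14 alternatives. The call was lost without Con replicate 2, Con replicate 3, EX replicate 2 or EX replicate 3, with adjusted p-values from 0.077 to 0.11 (edgeR).

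The other routes of pyruvate held more calls, 4 higher and 3 lower of 9 genes tested (median 0.13). The split was 1 higher and 3 lower in each of the 3 fits with limma, and 4 and 1 with DESeq2. Pcx, which carboxylates pyruvate to oxaloacetate, rose from 100.6 ± 0.749 to 122.3 ± 2.49 CPM (log2 fold change 0.28, edgeR adjusted p = 1.1e-05). Ldha, the muscle form of lactate dehydrogenase, rose from 2934 ± 61.9 to 3304 ± 65.7 CPM (0.17, edgeR adjusted p = 2.6e-04), and Me1, the cytosolic malic enzyme, from 326.4 ± 4.24 to 360.4 ± 2.55 CPM (0.14, edgeR adjusted p = 4.3e-03). Ldhb, the heart form of lactate dehydrogenase, fell from 92.5 ± 4.70 to 64.3 ± 4.46 CPM (-0.53, edgeR adjusted p = 1.8e-08). Pck2 and Me3, both mitochondrial enzymes, had log2 fold changes of -0.40 (edgeR adjusted p = 0.014) and -0.14 (edgeR adjusted p = 0.044). The calls of Pcx and Ldhb were kept under all 15 alternatives, those of Ldha and Me1 under 12, of Pck2 under 11 of 14 and of Me3 under 8. Pck2 lost its call without Con replicate 1 (edgeR adjusted p = 0.051) or EX replicate 3 (edgeR adjusted p = 0.052), and Me3 without Con replicate 2 (edgeR adjusted p = 0.21), without any 1 EX library (edgeR adjusted p from 0.057 to 0.15) and with the replicate block (edgeR adjusted p = 0.056). Both also lost it with DESeq2 (adjusted p = 0.083 for Pck2 and 0.145 for Me3), and Me3 without the filter on low values (edgeR adjusted p = 0.0587).

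Of 13 genes known to regulate Pdk4, 2 were lower in EX and none higher (median -0.03). Ppara, the fatty acid receptor that drives Pdk4 in fasting, stood at 19.2, 19.0 and 20.3 CPM in Con and at 13.8, 13.4 and 13.8 CPM in EX. The groups were far apart beside their spread, with a log2 fold change of -0.52 (edgeR adjusted p = 1.4e-05), and Esrrg, an oestrogen-related receptor, changed by -0.31 (edgeR adjusted p = 5.5e-03). Both calls were kept in the 14 alternatives in which these genes were tested. Of 17 genes known as targets of such receptors in muscle, 4 fell and 1 rose (median -0.05), and with limma on log2(TPM + 0.1) the counts were 9 and 1. Lpl, the lipase of the vessel wall, changed by -0.40 (edgeR adjusted p = 1.3e-08), Fabp3, the muscle fatty acid binding protein, by -0.33 (edgeR adjusted p = 8.8e-05), Acadl, a dehydrogenase of beta-oxidation, by -0.24 (edgeR adjusted p = 4.5e-05) and Cd36, a fatty acid carrier, by -0.15 (edgeR adjusted p = 4.3e-03). In contrast to Pdk4, Ucp3, a mitochondrial carrier that is also known as a target, rose from 176.1 ± 14.8 to 247.5 ± 2.90 CPM (log2 fold change 0.49, edgeR adjusted p = 4.8e-09). All of these calls were kept under the 15 alternatives except that of Cd36, which was lost without EX replicate 3 (-0.13, edgeR adjusted p = 0.056). The endothelial, adipocyte and fibre markers also moved between these libraries, and their part in the values of the targets was not tested.

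Of 8 genes tied to the response to hypoxia, among them transcription factors that mediate it, 3 fell and none rose (median -0.18). All 8 had a negative log2 fold change. The number that fell was 5 of 8 with the 20 most abundant genes left out of the totals or with limma on log2(FPKM + 0.1), and 7 of 8 with limma on log2(TPM + 0.1). Egln3, an oxygen-sensing hydroxylase, changed by -0.36 (edgeR adjusted p = 3.2e-03), Ndrg1 by -0.24 (edgeR adjusted p = 3.2e-03) and Epas1, an oxygen-regulated transcription factor also found in endothelium, by -0.13 (edgeR adjusted p = 0.014). The call of Epas1 was lost without Con replicate 2 (edgeR adjusted p = 0.073), EX replicate 1 (edgeR adjusted p = 0.0502) or EX replicate 2 (edgeR adjusted p = 0.063). The endothelial markers were lower in the same libraries, and their part in these values was not tested. Of 12 genes taken as a measure of mitochondrial content, Hspd1, a chaperone, and Cycs, cytochrome c, changed by 0.24 (edgeR adjusted p = 5.5e-05) and 0.18 (edgeR adjusted p = 8.3e-04), and the other 10 were not called (median 0.03). The call of Cycs was lost in the 3 fits with limma, and that of Hspd1 with limma on log2(TPM + 0.1). In the latter fit 2 others of the 12 were called lower. With the 20 most abundant genes left out of the totals, or a filter of at least 5 FPKM, 1 other was called lower.

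**Figure D4:**
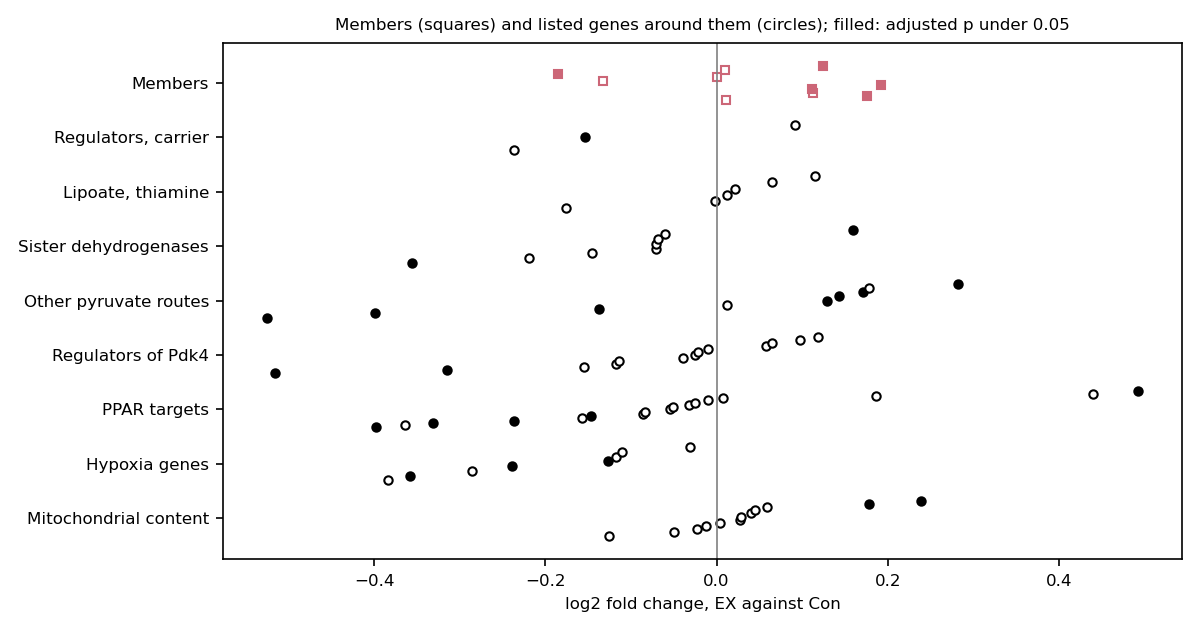
Log2 fold change in EX against Con of the members (squares) and of the genes tested in the 8 lists around them (circles), 1 row per list. Filled symbols mark an adjusted p-value under 0.05. The members lie between -0.19 and 0.19, and the circles reach from Ldhb at -0.53 to Ucp3 at 0.49.

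**Figure D5:**
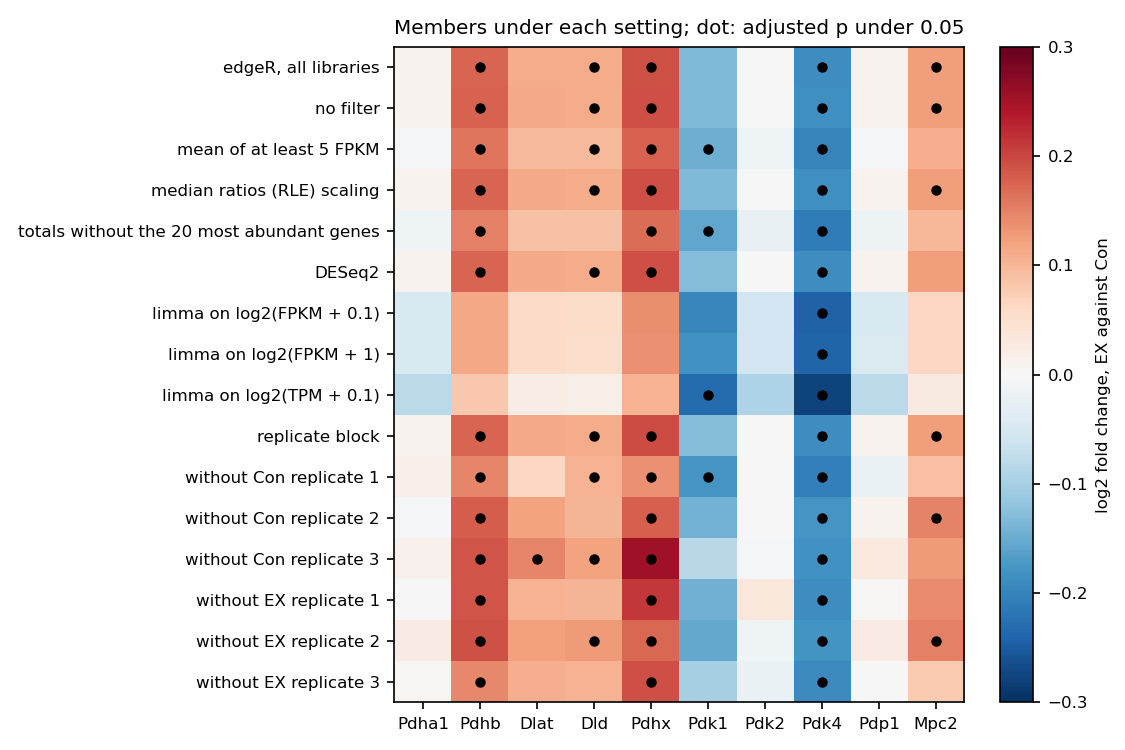
Log2 fold change of each member (columns, colour scale from blue for lower to red for higher in EX) under each setting (lines), with a dot where the adjusted p-value was under 0.05. Pdk4 carries a dot under all 15 alternatives, and Pdha1, Pdk2 and Pdp1 under none.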

How the data were processed

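The authors extracted total RNA with TRIzol, sequenced paired-end libraries on the DNBseq platform, trimmed the reads and aligned them with HISAT to GRCm39, according to the methods. The submitters' processing notes name cutadapt, featureCounts, MultiQC and the build GRCm38.p6 instead, so the build is uncertain, and the only positions given are those of the RefSeq promoter table, in its own build. For each gene and library the deposited table of the authors holds an estimated count, an FPKM and a TPM value. Between 4.18% and 4.44% of the estimated counts in a library were not whole, but those of the 10 members were whole in every library. The 6 columns of group means were not used.

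Counts were rounded, scaled by TMM and compared with edgeR 4.0.16 (glmQLFit, glmQLFTest) in R 4.3.3 over the 10883 of 16759 genes whose mean over the 6 libraries reached 1 FPKM. Standard errors were derived from the F statistics, and intervals are at the 95% level. Genes were called at a Benjamini-Hochberg adjusted p under 0.05, without a fold limit, after the study's criterion. The members and lists were chosen with earlier results of these data known. All members are named, and of each list the genes past the threshold, or the 3 largest changes in each direction if more than 5 passed. Mpc1, Pdk3, Pdp2, Lep, Myh2 and Myh7 are named besides, after their values were seen. The symbols Pdha2 and Mpc1l had no match, and Atp5f1a was matched by a synonym. Of 83 listed genes, 81 were matched and 76 tested. The alternatives were 2 other filters, 2 other scalings, DESeq2 1.42.0, limma 3.58.1 on log2 values of FPKM (pseudocounts 0.1 and 1) and TPM, a replicate block and each library left out in turn. Fits were tested on simulated data.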

Additional observations from a re-analysis of the deposited data

How the results depend on the processing

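Of 150 fold changes of members under the 15 alternatives, 122 stayed on the same side of the threshold, 28 crossed it, and no called change turned its direction. The uncalled changes of Pdha1, Pdk2 and Pdp1 kept their sign in 9, 6 and 9 of 15. The count of genes past the threshold was 1228 with DESeq2 in place of 1949 with edgeR, and between 1344 and 1857 with 1 library left out. The count of members past the threshold was 1 with limma on log2(FPKM + 0.1) or log2(FPKM + 1), 2 with limma on log2(TPM + 0.1), and from 3 (without EX replicate 1 or EX replicate 3) to 5 with 1 library left out, in place of 5. The median log2 fold change of all genes tested was -0.06 with limma on log2(FPKM + 0.1), -0.05 on log2(FPKM + 1) and -0.09 on log2(TPM + 0.1), and the calls of Pdhb, Pdhx, Dld and Mpc2 were lost there. TMM factors were 1.011, 1.021 and 1.027 in Con and 0.988, 0.971 and 0.983 in EX, with no overlap between the groups. FPKM and TPM were used as deposited, without these factors. Which part of the change in calls came with the scaling and which with the test was not tested. With the replicate block the counts were 1782 genes and 5 members, and of the genes named Me3 lost its call. Libraries with the same number did not deviate together (correlations of -0.08, -0.05 and -0.01 across genes), so the numbers were not taken as pairs. Pdk3, with 10 to 17 counts per library, was under the filter on low values, and without that filter its log2 fold change was 0.12 (edgeR adjusted p = 0.87).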
